A study of Mus musculus with 4 samples.

Results

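The 8 genes described here encode the proteins that anchor the red cell membrane to its skeleton, together with 3 membrane proteins that carry blood group antigens or assemble with them. They are Slc4a1, Epb42, Ank1, Sptb, Epb41, Rhag, Rhd and Kel, chosen by symbol and not by any measured value. In liver, all 8 were listed, with 56 reference isoforms in each library, among 33777 named genes in the library labelled Adar1-/- Mavs-/- and 33779 in the library labelled Adar1-/-. In embryos, the values analysed here held Slc4a1 and Sptb (8 isoforms) for the Adar1-/- Mavs-/- library and Slc4a1 (5 isoforms) for the Adar1-/- library. The embryo values cover 4 chromosomes for the Adar1-/- Mavs-/- library and 3 for the Adar1-/- library, against 33 chromosome names in each liver library. A member without an embryo value was therefore not measured at 0 there.

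Total RNA was sequenced from 4 mouse groups with 1 library each. These were livers at E15.5 labelled Adar1-/- Mavs-/- and Adar1-/-, from C57B6/J mice, and, at E11.5, whole embryos labelled Adar1-/- Mavs-/- and Adar1-/-, from C57B16/N mice. All 4 groups are labelled Adar1-/-, and no library labelled as having intact Adar1 was analysed here. The comparison in each tissue therefore asks what differs when Mavs, the adaptor of the RNA sensors RIG-I and MDA5, is lost in addition to Adar1, the RNA-editing enzyme encoded by Adar. With no replicate, each value compares libraries and not genotypes, no p-value was computed, and fewer red cells in a tissue cannot be told apart from less RNA per cell.

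The red cell membrane is held in shape by a mesh of spectrin tetramers lying under the lipid bilayer. Ankyrin ties the mesh to the anion exchanger band 3, protein 4.2 strengthens that contact, and protein 4.1 joins spectrin to short actin filaments. Liver is the main site of red cell formation in the mouse fetus, whereas the circulating red cells of the younger embryo arise mainly in the yolk sac.

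Depth and labels were examined first. Read totals were not analysed here. The ratio of coverage to FPKM, a stand-in for depth, was 7.13 in the liver library labelled Adar1-/- Mavs-/- and 8.58 in the liver library labelled Adar1-/-, and 5.62 and 3.48 in the embryo libraries labelled Adar1-/- Mavs-/- and Adar1-/-. FPKM is fragments per kilobase of isoform scaled to the mapped fragments of each library. Adar was measured at 4.11 FPKM in the liver library labelled Adar1-/- Mavs-/-, with 3 of 8 reference isoforms above 0, against 5.56 FPKM in the liver library labelled Adar1-/-, with 0 of 8 above 0. Mavs was measured at 9.96 FPKM in the liver library labelled Adar1-/- Mavs-/- against 7.26 FPKM in the liver library labelled Adar1-/-, so its level was not lower in the library labelled as lacking it. The labels do not name the deleted part of either gene, so these levels do not check the alleles. All 14 hepatocyte markers were counted in liver. Alb, the serum albumin gene, had 6648 FPKM in the library labelled Adar1-/- Mavs-/- and 4787 FPKM in the library labelled Adar1-/-. Trf, the transferrin gene, had the opposite order, at 1190 FPKM in the library labelled Adar1-/- Mavs-/- and 2347 FPKM in the library labelled Adar1-/-.

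Of the 8 genes, 7 reached 1 FPKM in at least 1 liver library. Epb42 was the member that differed most between the liver libraries that both listed it above 0, at more than 2-fold higher in the library labelled Adar1-/- Mavs-/-. Slc4a1, Rhag and Rhd lay slightly above, and Sptb and Kel slightly below, their levels in the library labelled Adar1-/-; with values rescaled to a common total (TPM), which shifts the median of all genes by -0.26, Slc4a1, Rhag and Rhd lay below as well. Epb41 had no FPKM counted under its symbol in the library labelled Adar1-/-, and Ank1 was listed at 0 in both. Differences are log2 ratios of FPKM plus 1, of the library labelled Adar1-/- Mavs-/- divided by the one labelled Adar1-/-, after a factor that sets the median ratio of well-measured genes to 0. By this measure 2 of the 7 (Epb42, and Epb41 by its 0) were at least 2-fold higher, a call made for 6.54% of the 13847 genes counted, and 0 were at least 2-fold lower, a call made for 9.75%. The Epb41 call rests on a 0 left where an overlapping isoform was counted under another symbol. Among genes above 0 in both libraries the count was 1 of 6, against 2.69% of all such genes, and 0 of 6 were lower, against 6.79%. The median log2 ratio was 0.22 over the 7 members and -0.12 over all genes counted.

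**Figure D1:**
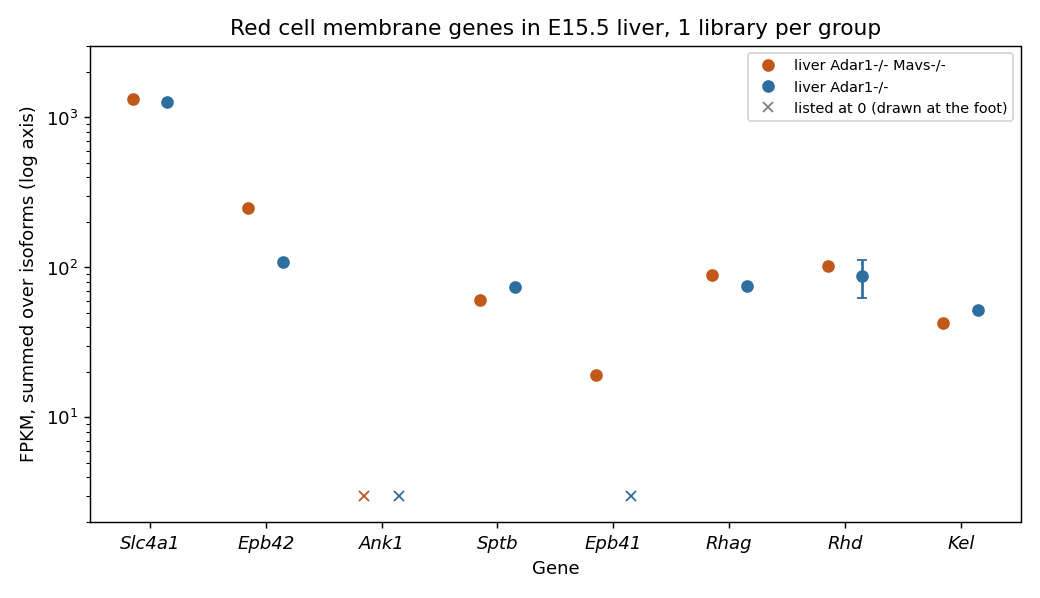
FPKM summed over isoforms (log axis) of each of the 8 genes in the liver libraries labelled Adar1-/- Mavs-/- and Adar1-/-, with 1 library per group. Bars are the deposited isoform bounds combined over the isoforms of each gene as if independent, and crosses mark genes listed at 0. Epb42 stands at 249 FPKM against 109 FPKM, while the Slc4a1 points lie close together at 1335 and 1263 FPKM.

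Slc4a1 encodes band 3, which exchanges chloride for bicarbonate and is the attachment point for ankyrin and protein 4.2. In the mm9 build it lies at chr11:102210138-102227517. Its level was 1335 FPKM, with bounds of 1314 to 1356, in the library of liver labelled Adar1-/- Mavs-/- and 1263 FPKM, with bounds of 1244 to 1282, in the library of liver labelled Adar1-/-. The bounds did not overlap, but they cover estimation within a library only and treat the isoforms of a gene as independent. The log2 ratio was 0.07, above that of 62.8% of genes. It was the most abundant member in both livers: 72 named genes had a higher FPKM in the library labelled Adar1-/- Mavs-/- and 65 in the library labelled Adar1-/-.

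Most of that Slc4a1 FPKM belonged to a short isoform. ENSMUST00000145636, a processed transcript of 356 bases with no annotated coding part, had 1041 FPKM in the liver library labelled Adar1-/- Mavs-/- and 989 FPKM in the liver library labelled Adar1-/-. It made up 78.0% and 78.3% of the gene's FPKM in the libraries labelled Adar1-/- Mavs-/- and Adar1-/-. The 4545-base coding isoform ENSMUST00000006749 had 294 FPKM in the library labelled Adar1-/- Mavs-/- and 274 FPKM in the library labelled Adar1-/-. It had the status LOWDATA in both libraries, whereas the short isoform had the status OK, so the division between them is uncertain. Because FPKM divides by length, the proportions turned round in length-weighted FPKM (FPKM times isoform length in kilobases, summed), which follow the number of fragments. The coding isoform held 78.3% of the length-weighted FPKM in the library labelled Adar1-/- Mavs-/- and 78.0% in the library labelled Adar1-/-. Of the 356 bases, 263 lie in exons of the coding isoform and 195 in its coding part. Those 195 bases are shown because reads from it cannot by themselves be placed on one isoform or the other. The stretch spans positions 293 to 487 of the coding isoform and 162 to 356 of the short one, counted from each 5′ end, is taken from the GENCODE M21 transcripts of the GRCm38 build on the minus strand of chromosome 11, and has the start codon in capitals.
Slc4a1: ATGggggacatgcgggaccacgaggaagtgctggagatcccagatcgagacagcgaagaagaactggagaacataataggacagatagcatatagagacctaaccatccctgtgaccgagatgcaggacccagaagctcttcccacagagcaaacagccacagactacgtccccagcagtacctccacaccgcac

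Epb42 encodes protein 4.2, a relative of transglutaminases without enzyme activity that binds band 3 and ankyrin. It lies at chr2:120843627-120862808 in mm9. Its level was 249 FPKM, with bounds of 246 to 251, in the library of liver labelled Adar1-/- Mavs-/- and 109 FPKM, with bounds of 107 to 110, in the library of liver labelled Adar1-/-. The values stand 2.28-fold apart after scaling and the log2 ratio was 1.18, above that of 94.7% of genes. It stayed positive under all 12 alternatives, from 0.86 with TPM over the shared named genes to 3.22 with isoforms of status OK alone. The value of 3.22 leaves out ENSMUST00000147444 and ENSMUST00000023987, which had the status LOWDATA in both libraries, so it does not describe the same isoforms.

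The FPKM of Epb42 was split over several isoforms. The full-length ENSMUST00000102490, of 4115 bases, was listed at 0 in both livers. ENSMUST00000147444 (1752 bases) had 95.7 FPKM in the library labelled Adar1-/- Mavs-/- and 55.8 FPKM in the library labelled Adar1-/-. ENSMUST00000023987 (2695 bases) had 81.5 FPKM in the library labelled Adar1-/- Mavs-/- and 46.2 FPKM in the library labelled Adar1-/-. These isoforms share 0 exon bases and contain 455 and 1618 of the 2073 coding bases of the full-length form, together its whole coding part. The 0 listed for the full-length form therefore does not mean that reads were absent from its coding part. Both shorter isoforms were higher in the library labelled Adar1-/- Mavs-/-. ENSMUST00000124703 (2513 bases) had 47.9 FPKM in the library labelled Adar1-/- Mavs-/- and was listed at 0 in the library labelled Adar1-/-. Isoforms assembled from the reads held 35.8% of the gene's length-weighted FPKM in the library labelled Adar1-/- Mavs-/- and 32.8% in the library labelled Adar1-/-.

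**Figure D2:**
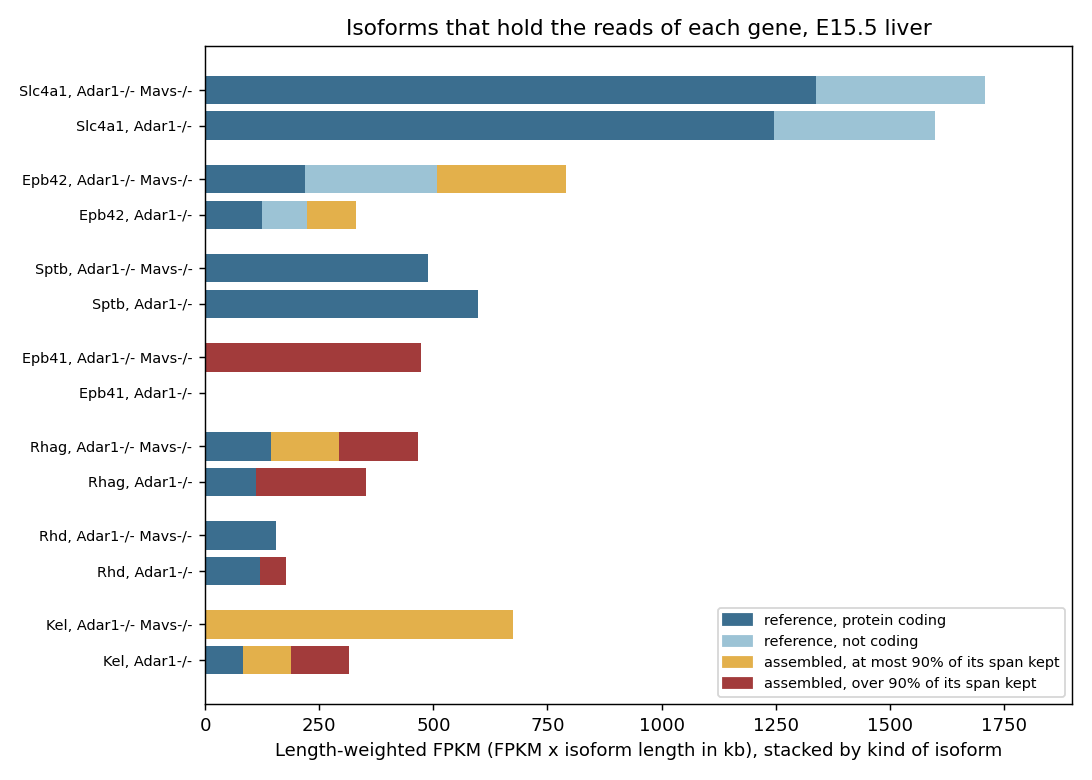
Length-weighted FPKM (horizontal axis) of each gene above 0, stacked by kind of isoform, in the liver libraries labelled Adar1-/- Mavs-/- (upper bar of each pair) and Adar1-/- (lower bar), 1 library each; dark red marks assembled isoforms that keep over 90% of their span, introns included. Bars hold only isoforms counted under the symbol of the gene. Assembled isoforms hold the whole Kel bar in the library labelled Adar1-/- Mavs-/- and 73.3% of it in the library labelled Adar1-/-, while the Slc4a1 and Sptb bars have none.

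Ank1 encodes ankyrin-1, the adaptor between band 3 and beta spectrin, at chr8:24085316-24260969 in mm9. It was listed at 0 in both livers, where 13 of its 17 reference isoforms had the status FAIL and 4 the status LOWDATA. No level or fold is therefore given for its summed FPKM. Reads did map there: isoforms over the gene, counted under other names, held 1242 length-weighted FPKM in the library labelled Adar1-/- Mavs-/- and 1173 in the library labelled Adar1-/-. Of these, 99.2% and 99.4% sat in FAIL isoforms of the libraries labelled Adar1-/- Mavs-/- and Adar1-/-.

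Sptb encodes erythroid beta spectrin, a main filament of the membrane skeleton, at chr12:77681475-77811534 in mm9. Its level was 60.4 FPKM, with bounds of 59.8 to 61.0, in the library of liver labelled Adar1-/- Mavs-/- and 74.1 FPKM, with bounds of 72.9 to 75.2, in the library of liver labelled Adar1-/-. The log2 ratio was -0.30 and stayed below 0 under all 12 alternatives, from -0.61 to -0.16. All of the FPKM counted under Sptb came from ENSMUST00000166101 (8084 bases), which shares 6341 of the 6987 coding bases of ENSMUST00000021458, itself listed at 0. Assembled isoforms counted under Gm24010 or no symbol held 52.9% and 52.6% of length-weighted FPKM over the gene span in the libraries labelled Adar1-/- Mavs-/- and Adar1-/-. These isoforms keep over 90% of their span, introns included.

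Epb41 encodes protein 4.1, which stabilises the junction of spectrin and actin, at chr4:131479328-131631236 in mm9. Its summed isoforms came to 19.1 FPKM, with bounds of 18.9 to 19.3, in the library of liver labelled Adar1-/- Mavs-/- and was listed at 0 in the library labelled Adar1-/-. In the library labelled Adar1-/- Mavs-/- that value came from 1 assembled isoform of 24768 bases, which keeps 100% of its span. In the library labelled Adar1-/-, an assembled isoform over the same stretch, with 823 length-weighted FPKM, was counted under Gm10300. The 0 there thus reflects the symbol used and not an absence of reads. Of 18 reference isoforms, 0 were above 0 in either library. Over the whole gene span, counting isoforms under any name, there were 1775 length-weighted FPKM in the library labelled Adar1-/- Mavs-/- and 1409 in the library labelled Adar1-/-, a log2 ratio of 0.41. In both libraries 100% of it sat in isoforms that keep over 90% of their span, introns included. With 1 library at 0, no fold is reported for its FPKM.

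Rhag encodes the Rh-associated glycoprotein, which carries ammonia or carbon dioxide and is needed to bring Rh proteins to the surface, and lies at chr17:40948075-40977703 in mm9. Its level was 89.2 FPKM, with bounds of 87.9 to 90.6, in the library of liver labelled Adar1-/- Mavs-/- and 75.4 FPKM, with bounds of 74.3 to 76.5, in the library of liver labelled Adar1-/-, a log2 ratio of 0.23. Rhd encodes the mouse Rh protein of the same complex, at chr4:134420451-134452087. Its level was 102 FPKM, with bounds of 100 to 104, in the library labelled Adar1-/- Mavs-/- and 87.3 FPKM, with bounds of 62.1 to 113, in the library labelled Adar1-/-, so the bounds overlapped. The Rhd log2 ratio was 0.22. The coding isoforms of Rhag and Rhd had the status LOWDATA in both livers.

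Kel encodes the Kell glycoprotein, a zinc endopeptidase that cleaves endothelin precursors and is linked to the XK protein, at chr6:41636329-41654338 in mm9. Its level was 42.8 FPKM, with bounds of 42.0 to 43.6, in the library of liver labelled Adar1-/- Mavs-/- and 51.9 FPKM, with bounds of 50.9 to 53.0, in the library of liver labelled Adar1-/-, a log2 ratio of -0.28. The coding isoform ENSMUST00000031899 was listed at 0 in the library labelled Adar1-/- Mavs-/- and had 33.2 FPKM in the library labelled Adar1-/-. Assembled isoforms held all of the gene's length-weighted FPKM in the library labelled Adar1-/- Mavs-/- and 73.3% in the library labelled Adar1-/-. As length-weighted FPKM, Kel stood at 674 in the library labelled Adar1-/- Mavs-/- and 315 in the library labelled Adar1-/-, a log2 ratio of 1.23. With status OK isoforms alone, which leaves out the coding isoform, it was 1.14 without length weighting. Its direction therefore depended on the weighting and on whether the coding isoform, of status LOWDATA in both libraries, was counted.

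The order of FPKM was the same for the members above 0 in both livers, namely Slc4a1, Epb42, Rhd, Rhag, Sptb and Kel. In the library labelled Adar1-/-, the bounds of Rhd overlapped those of Epb42, Rhag and Sptb, and those of Rhag and Sptb overlapped, so these neighbours are not separated there.

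Length-weighted FPKM give more weight to long isoforms, including those that keep introns, than summed FPKM do. As length-weighted FPKM, the log2 ratios were 0.23 for Slc4a1, 1.39 for Epb42, -0.16 for Sptb, 0.53 for Rhag and -0.06 for Rhd. Over the gene span, with isoforms of any name, it gave 0.17 for Slc4a1, 1.33 for Epb42, 0.16 for Ank1, -0.21 for Sptb, 0.41 for Epb41, 0.61 for Rhag, 0.15 for Rhd and 0.80 for Kel. The Ank1 value rests on FAIL isoforms, which held 99.2% and 99.4% of it in the libraries labelled Adar1-/- Mavs-/- and Adar1-/-. The Epb41 value rests wholly on isoforms that keep introns. Reference isoforms alone gave 0.07 for Slc4a1, 1.12 for Epb42, -0.30 for Sptb and 0.35 for both Rhag and Rhd, while Kel was listed at 0 in the library labelled Adar1-/- Mavs-/- against 33.2 FPKM in the library labelled Adar1-/-. Epb42 was the member at least 2-fold higher under each of these measures. Over the gene span 1 of 7 members was at least 2-fold higher, against 4.7% of all genes, and 0 lower, against 6.37%. By length-weighted FPKM 3 of 7 (Epb42, Kel and Epb41 by its 0) were higher, against 5.93%, and 0 lower, against 8.69%. With reference isoforms 1 of 6 was higher, against 7.13%, and 1 (Kel) lower, against 17.5%.

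**Figure D3:**
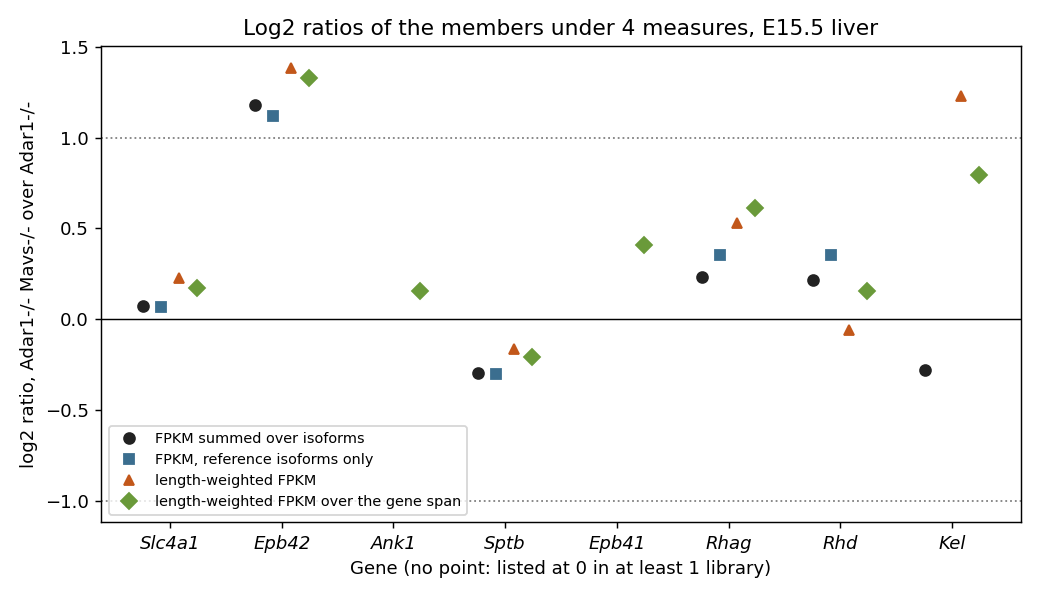
Log2 ratio, liver library labelled Adar1-/- Mavs-/- over liver library labelled Adar1-/-, of each member under each way of summing its isoforms, with 1 library per group. The Ank1 point, over the gene span, rests on isoforms of status FAIL for 99.2% and 99.4% of it in the libraries labelled Adar1-/- Mavs-/- and Adar1-/-. Epb42 lies above 1 by every measure, from 1.12 to 1.39, and Kel lies at -0.28 by summed FPKM and 1.23 by length-weighted FPKM, with no point for reference isoforms, which are listed at 0 in the library labelled Adar1-/- Mavs-/- and at 33.2 FPKM in the library labelled Adar1-/-.

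The DNA upstream of the start was read for the members that the RefSeq promoter table (GRCm38.p6) holds, 6 of 8 members with 8 promoters. GATAA, the core bound by GATA factors such as GATA1, and CACCC, the core bound by KLF1, were searched on both strands in the 250 bases before the start. Matches of the 2 motifs on opposite strands can share an end base, which 0 of the 8 windows showed. GATAA was found in 4 of the 8 promoters, against 22.6% of all 32851 promoters, and CACCC in 4 of 8, against 52.0%. Both were in 3. The promoters with a GATAA match are shown, with matches in capitals (TTATC and GGGTG are the other strand); a match describes the letters and not binding. They are at chr2:121036878-121037127 for Epb42 on the minus strand, chr17:40810899-40811148 for Rhag on the plus strand, chr4:134864286-134864535 for Rhd on the plus strand and chr6:41704326-41704575 for Kel on the minus strand, each printed along its gene.
Epb42: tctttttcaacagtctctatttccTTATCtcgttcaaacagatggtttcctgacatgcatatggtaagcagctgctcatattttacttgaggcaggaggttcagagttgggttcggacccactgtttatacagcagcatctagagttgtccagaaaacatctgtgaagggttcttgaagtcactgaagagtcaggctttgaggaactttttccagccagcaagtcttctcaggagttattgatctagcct
Rhag: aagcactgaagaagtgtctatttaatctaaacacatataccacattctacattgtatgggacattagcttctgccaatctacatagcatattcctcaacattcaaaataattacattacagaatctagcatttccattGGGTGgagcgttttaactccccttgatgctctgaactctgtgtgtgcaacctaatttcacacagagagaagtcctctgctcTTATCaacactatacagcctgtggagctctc
Rhd: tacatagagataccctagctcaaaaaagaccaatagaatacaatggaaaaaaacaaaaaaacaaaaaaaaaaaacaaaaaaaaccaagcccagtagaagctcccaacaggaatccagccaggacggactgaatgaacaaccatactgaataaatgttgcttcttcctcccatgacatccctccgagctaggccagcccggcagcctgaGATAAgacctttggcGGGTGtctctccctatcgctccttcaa
Kel: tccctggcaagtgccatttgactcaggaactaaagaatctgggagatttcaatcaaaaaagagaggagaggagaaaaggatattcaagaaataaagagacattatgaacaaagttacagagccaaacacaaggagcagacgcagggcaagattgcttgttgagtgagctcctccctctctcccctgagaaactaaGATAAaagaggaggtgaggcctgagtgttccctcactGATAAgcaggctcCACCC
The Epb42 window held GATAA and no CACCC, those of Rhag and Rhd held 1 of each, and that of Kel held 2 GATAA and 1 CACCC. The Sptb window held 1 CACCC and no GATAA, and the 3 Epb41 windows held neither.

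Among 36 other genes of the red cell membrane, 32 were counted in liver; 1 (Tfrc) was at least 2-fold higher in the library labelled Adar1-/- Mavs-/-, 7 at least 2-fold lower and 24 within 2-fold. Over all genes counted, 6.54% were at least 2-fold higher and 9.75% lower. The median log2 ratio of these membrane genes was -0.21. Tfrc, the transferrin receptor that brings iron into red cell precursors, stood at 282 and 138 FPKM in the libraries labelled Adar1-/- Mavs-/- and Adar1-/-, a log2 ratio of 1.02 that became 0.75 over the gene span and -0.31 with status OK isoforms alone. Bsg, the basigin gene of the Ok blood group, had a log2 ratio of 0.22 and Ermap, the Scianna blood group gene, 0.20. Stom, which encodes the membrane protein stomatin, was at 0.15 and Abcg2, a transporter of porphyrins and urate, at 0.41. The 7 lower genes were Dmtn, Mpp1, Cd47, Aqp3, Abcb6, Cd44 and Ephb4. Dmtn, which bundles actin at the skeleton, had 24.3 FPKM in the library labelled Adar1-/- Mavs-/- and 51.1 FPKM in the library labelled Adar1-/-, a log2 ratio of -1.05 that became 0.21 over the gene span. Cd47, which marks cells as self to macrophages, had 22.7 FPKM in the library labelled Adar1-/- Mavs-/- and 64.7 FPKM in the library labelled Adar1-/-, a log2 ratio of -1.47 that became 2.99 over the gene span. Mpp1, a scaffold protein bound to protein 4.1, was listed at 0 in the library labelled Adar1-/- Mavs-/- and at 2.45 FPKM in the library labelled Adar1-/-. Its reference isoforms were at 0 in both, so its call rests on that 0. Over the gene span Mpp1 had 135 and 116 length-weighted FPKM in the libraries labelled Adar1-/- Mavs-/- and Adar1-/-, a log2 ratio of 0.29. Aqp3, a water and glycerol channel, had a log2 ratio of -1.18 and Ephb4, a receptor for ephrin-B2, -1.02. Abcb6, a transporter that carries the Langereis blood group, was at -1.36 and the adhesion receptor Cd44 at -1.07, and over the gene span these became -0.22 and 1.33. Over the gene span the counts were 2 higher (Cd47 and Cd44) and 1 lower (Aqp3), with a median of 0.24. Of all genes, 4.7% were higher and 6.37% lower by that measure.

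**Figure D4:**
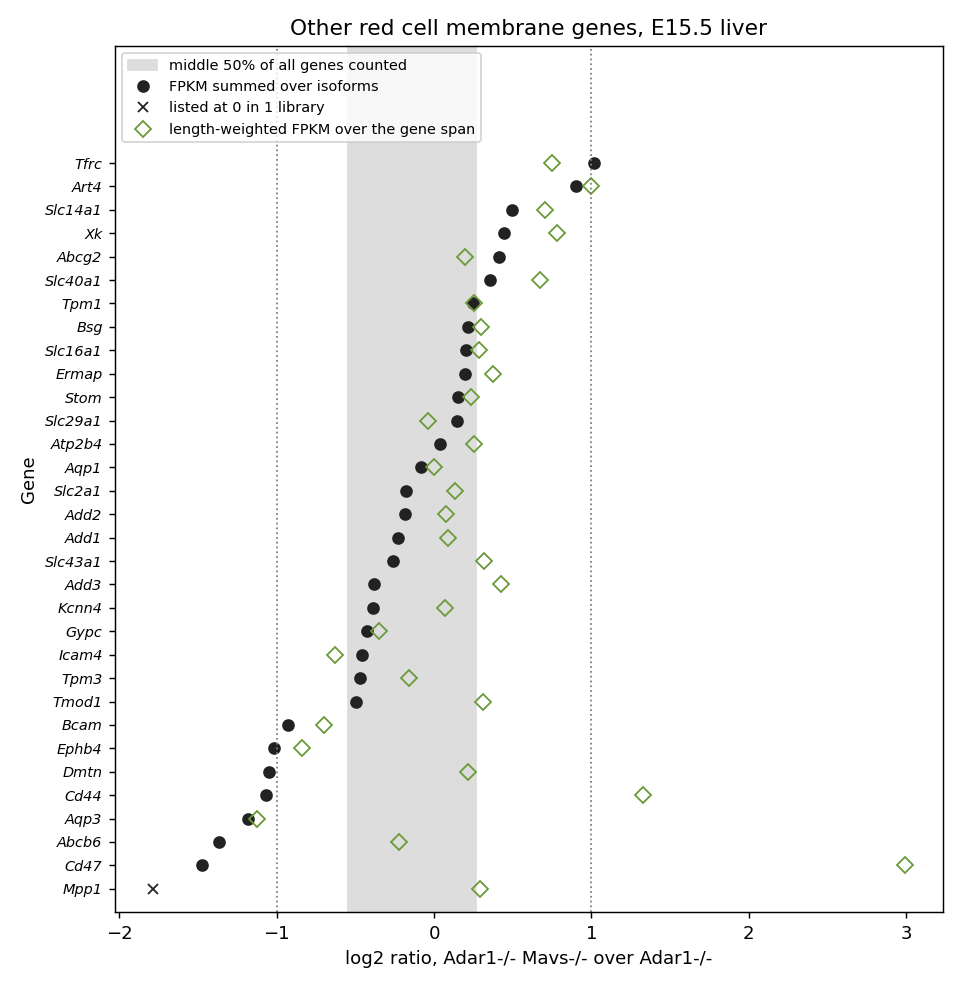
Log2 ratio, liver library labelled Adar1-/- Mavs-/- over liver library labelled Adar1-/-, of the other red cell membrane genes counted, with 1 library per group. Tfrc at 1.02 is highest by summed FPKM (filled), and Cd47 lies at -1.47 by summed FPKM and 2.99 by length-weighted FPKM over the gene span (open); the grey band holds the middle of all genes counted.

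Other red cell genes were counted for context. Over all genes counted, 6.54% were at least 2-fold higher and 9.75% lower by summed FPKM. The shares were 5.93% and 8.69% by length-weighted FPKM, 4.7% and 6.37% over the gene span, and 7.13% and 17.5% with reference isoforms. Of 13 hemoglobin and heme genes counted, 4 were at least 2-fold higher and 0 lower, and their median log2 ratio was 0.21. Over the gene span 2 were higher, and with reference isoforms 4 were higher and 2 lower. The highest were the embryonic beta-like globins Hbb-bh1 at 2.10 and Hbb-y at 1.85. No adult globin was among the 13. Hba-a1, Hba-a2, Hbb-b1 and Hbb-b2 had no value in either liver library. Hbb-bs and Hbb-bt had values only in the library labelled Adar1-/-, at 27142.5 and 12363 FPKM. Urod, a heme synthesis enzyme, was at 1.01, Alas2, the first enzyme of the erythroid pathway, at 0.28 and Slc25a37, the mitochondrial iron importer, at 0.13. Of 21 late maturation genes 0 were 2-fold in either direction, against 1 higher by length-weighted FPKM and over the gene span and 1 lower with reference isoforms. Their median was 0.25, and Car2, Prdx2 and Ube2l6 were at 0.83, 0.69 and 0.76. Of 16 erythroid regulators 1 was higher (Nfe2, counted only through the library labelled Adar1-/- Mavs-/-, since its value labelled Adar1-/- was 0 with an upper bound of 4492 FPKM) and 1 lower (Kit, -1.08, but 0.18 over the gene span). Their median was -0.17, against 0.10 by length-weighted FPKM and 0.11 over the gene span, and Klf1, Lmo2 and Tal1 were at 0.23, 0.28 and -0.20. Of 16 relatives of the members used outside red cells, 1 was higher (Rhbg, which only the library labelled Adar1-/- Mavs-/- listed above 0) and 2 lower (Slc4a7 and Ece1). Over the gene span Slc4a7 was at 0.02 and Ece1 at -0.71. The median of the list was -0.60, and Tgm2, Sptbn1 and Sptan1 were at -0.79, -0.52 and -0.36.

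Markers of other cells also differed between the livers. By summed FPKM, 6.54% of all genes counted were at least 2-fold higher and 9.75% lower, and the shares by the other measures are given above. The 14 hepatocyte markers had a median log2 ratio of -0.07, with 6 above 0, 8 below 0 and none listed at 0 FPKM. By summed FPKM 0 were 2-fold, against 1 lower by length-weighted FPKM, over the gene span and with reference isoforms. Alb, Afp and Trf, the most abundant of them, had log2 ratios of 0.47, 0.08 and -0.99. Of 13 macrophage markers 4 (Adgre1, Cd68, Ctss and Vsig4) were at least 2-fold higher and 0 lower, against 3 higher by length-weighted FPKM, 2 with reference isoforms and 1 over the gene span. Cd68 and Vsig4 reached 1 FPKM only in the library labelled Adar1-/- Mavs-/-. The median was 0.65, and their summed level was 278 FPKM in the library labelled Adar1-/- Mavs-/- and 206 FPKM in the library labelled Adar1-/-, where Cd68 was listed at 0. Lyz2, Vcam1 and C1qb, the most abundant of them, had log2 ratios of 0.24, 0.11 and 0.69. Of 8 megakaryocyte markers 1 was higher (Ppbp) and 1 lower (Vwf, with an upper bound of 286 FPKM in the library labelled Adar1-/- and at -0.24 over the gene span), with a median of 0.39 and sums of 141 and 81.5 FPKM in the libraries labelled Adar1-/- Mavs-/- and Adar1-/-, with Gp1ba at 0 in both. All 10 muscle markers counted were at least 2-fold lower. Their median was -3.16, with a summed level of 10.9 FPKM in the library labelled Adar1-/- Mavs-/- and 176 FPKM in the library labelled Adar1-/-, with Tnnc2 at 0 in both. Mylpf, a fast muscle myosin light chain, had 8.93 FPKM in the library labelled Adar1-/- Mavs-/- and 74.7 FPKM in the library labelled Adar1-/-. The part of these cells in the members' values was not tested.

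In embryos, Slc4a1 was the member that both libraries held. Its level was 23.8 FPKM, with bounds of 23.2 to 24.4, in the embryo library labelled Adar1-/- Mavs-/- and 26.9 FPKM, with bounds of 25.7 to 28.0, in the embryo library labelled Adar1-/-. The log2 ratio was 0.23 after the embryo factor of 1.34 and -0.17 with FPKM as deposited, so its sign followed the scaling. It was within 2-fold, as were all but 16.3% of the 1943 embryo genes counted. Those genes come only from chromosomes that the values of both embryo libraries cover. The coding isoform had 23.8 FPKM in the library labelled Adar1-/- Mavs-/- and 17.4 FPKM in the library labelled Adar1-/-, where an assembled isoform held the other 9.52 FPKM. Sptb had 9.02 FPKM, with bounds of 7.36 to 10.7, in the embryo library labelled Adar1-/- Mavs-/-, 7.68 FPKM of it in ENSMUST00000166101, the isoform also measured in liver.

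The tissues were normalised separately and also differ in age and strain label, so levels are set side by side without a test. The Slc4a1 coding isoform had 294 and 274 FPKM in the livers labelled Adar1-/- Mavs-/- and Adar1-/-, against 23.8 and 17.4 FPKM in the embryos with the same labels. Its status was LOWDATA in both livers and OK in both embryos. The short Slc4a1 isoform, at 1041 and 989 FPKM in those livers, was listed at 0 in both embryos. Hba-x, the embryonic alpha-like globin of primitive red cells, had the opposite order, at 9.61 and 8.46 FPKM in the livers and 852 and 806 FPKM in the embryos.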

How the data were processed

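The deposited values are isoform FPKM, 1 table per library, each with confidence bounds, a status and a coverage value, per the file headers. TopHat 1.4.0, Cufflinks 2.2.1, edgeR 3.4.2 and the mm9 build appear, with no role given, in the software list per the submitters' processing notes. Deposited coverage values, proportional to FPKM within a library, were used only to follow depth. Strandedness: not given in the sources used here. Symbols came from GENCODE M21 (86.7% of Ensembl identifiers in each liver library); assembled isoforms took the symbol they overlapped best.

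FPKM were summed by symbol with Python 3.11.15 and pandas 2.3.3. The bounds of a gene were computed from the deposited isoform bounds. Their distances from the FPKM were combined as the root of the summed squares, which treats isoforms as independent. Counted genes reached 1 FPKM in either library. The log2 ratio used a pseudocount of 1, which understates differences of low genes, and a factor (0.995 in liver, 1.34 in embryos) that set the median ratio of genes of at least 5 FPKM in both libraries to 0. Genes whose log2 ratio reached 1 in either direction were called 2-fold. An exact 0 can be a failed estimate. Length-weighted FPKM are FPKM times isoform length in kilobases, which follow fragments; span sums (bedtools 2.31.1) take isoforms with at least 50% of their span inside the gene. The calculation was tested on simulated data. Positions are 1-based.

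The members and lists were chosen with earlier results of these data known. All members were named, with the 2-fold and the 5 most abundant other red cell membrane genes. The 3 most abundant genes of each other list were named, except for the muscle and megakaryocyte markers. Of the alternatives, 9 were planned and 3 were added after seeing the data. Some genes of the other red cell membrane list are not reported here and were left out of its counts.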

Additional observations from a re-analysis of the deposited data

Results flagged for a closer look

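Bsg and Slc4a1 were the 2 red cell membrane genes counted in both tissues. The embryo values cover only some of the chromosomes. For Bsg, which encodes basigin, the log2 ratio with the library labelled Adar1-/- Mavs-/- on top was 0.22 in liver and -0.62 in embryos, opposite in sign with 1 library per group. With TPM both were below 0, at -0.10 in liver and -1.53 in embryos, and with reference isoforms they were 0.21 in liver and -0.09 in embryos. The difference between the tissues was not tested.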

How the results depend on the processing

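No paired analysis was possible because each group has 1 library, and for the same reason no replicate could be left out. The liver median of the members, 0.22, was 0.35 with an upper quartile factor, 0.60 with status OK isoforms, 0.53 by length-weighted FPKM, 0.41 over the gene span, 0.14 for genes above 0 in both libraries and -0.10 with TPM. The count of 2-fold higher members, 2, was 1 (Epb42) with reference isoforms, the gene span and genes above 0 in both. With TPM the count was also 1, but that was Epb41 by its 0, while Epb42 was at 0.86. The count was 3 with status OK isoforms and with length-weighted FPKM. The count of lower members, 0, was 1 (Kel) with reference isoforms. Kel turned to 1.14 with status OK isoforms, 1.23 by length-weighted FPKM and 0.80 over the span; Rhag to -0.084 with TPM and -0.017 with status OK isoforms; Slc4a1 to -0.25 with TPM. Embryo Slc4a1, 0.23, was -0.17 with FPKM as deposited, -0.66 with TPM, 0.37 with the upper quartile factor, 0.79 with reference isoforms, 0.66 by length-weighted FPKM and 0.68 over the span. Of the other membrane genes, the higher count of 1 was 0 with TPM and with a pseudocount of 5, 2 with the upper quartile factor, with length-weighted FPKM and over the span, and 3 with status OK isoforms. The lower count of 7 was 1 with a pseudocount of 5 and over the span, and 4 with the upper quartile factor, reference isoforms, status OK isoforms and length-weighted FPKM.

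Scalings moved the median of all genes by -0.26 (TPM) and 0.11 (upper quartile) in liver, and by -0.35, -0.76 and 0.13 (as deposited, TPM, upper quartile) in embryos. Higher genes were 40.1% of 2-fold liver calls, 23.8% with TPM, 28.9% with reference isoforms and 28.4% above 0 in both. In embryos they were 41.0%, 20.4% as deposited and 7.07% with TPM. The cause of these shifts was not tested.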
